A study of Mus musculus with 13 samples.

Results

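A set of 9 genes of the TNF receptor superfamily was followed through etoposide-induced senescence and Fucoidan-FV treatment of mouse embryonic fibroblasts (MEFs): Fas, Tnfrsf1a, Tnfrsf10b, Tnfrsf21, Tnfrsf12a, Tnfrsf1b, Tnfrsf22, Tnfrsf23 and Tnfrsf11b. They were taken by symbol, each symbol matched 1 gene identifier of the GRCm39 annotation, and all 9 were among the 15034 genes tested of 57010 listed. The RNA-Seq comprised wild-type (WT) MEFs in 4 groups, each with mice 4, 5 and 6 of the sample labels. Control MEFs received no etoposide but, per the authors, its vehicle. Senescent MEFs had received 2 μM etoposide, a topoisomerase poison that breaks DNA, for 24 h and were then cultured for 5 days. Senescent MEFs were left untreated or were given Fucoidan-FV, the sulfated polysaccharide of Fucus vesiculosus, a brown alga, at doses of 100 or 300 μg/mL for 12 h before RNA was extracted. As a model, MEFs are a primary culture of a whole embryo from which viscera, lung and heart had been removed, so the fibroblasts have no single tissue of origin. Control mouse 5 had 2 libraries, 5(1) and 5(2), which were summed, so that 13 libraries gave 3 samples per group.

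Receptors of this superfamily bind trimeric ligands of the TNF family through cysteine-rich repeats outside the cell. Some carry a death domain inside the cell and can start caspase-driven apoptosis, others recruit TRAF adaptors and feed the NF-kB and JNK pathways, and decoys hold the ligand without passing on the death signal. Fibroblasts are known for TNFR1 (Tnfrsf1a) and for Fn14 (Tnfrsf12a), the receptor of the cytokine TWEAK, which is induced in wounded and growing tissue. Fas is a long known target of p53, the transcription factor that DNA damage activates.

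The libraries held 22782536 to 31278750 expected counts each. Levels are given in CPM (counts scaled to a common library size with TMM factors), differences are log2 fold changes from edgeR's quasi-likelihood test with their standard error (SE), and a difference was called at an adjusted p under 0.05. Markers of fibroblasts summed to between 10595 and 16508 CPM in every sample, but single ones differed between groups. Dcn had means of 1.06 CPM in control and 16.2 CPM in senescent MEFs, 81.6 CPM at 100 μg/mL and 75.7 CPM at 300 μg/mL. Means of Vim were 5590, 7729, 4228 and 4869 CPM in the same order. The 10 macrophage and leukocyte markers together held 0.564 to 5.20 CPM in the control group, 2.97 to 17.0 CPM in senescent MEFs, 6.57 to 14.5 CPM at 100 μg/mL and 3.30 to 11.3 CPM at 300 μg/mL. Of 4 endothelial markers, Tek alone was at 3.69 to 7.96 CPM in treated samples, against at most 0.863 CPM in the other groups, while the other 3 together held at most 1.99 CPM in each treated sample. Of 6 skeletal muscle markers, Des alone was above 1 CPM. Whether the genes of these lists mark other cells here, and a part of such cells in the results, was not tested. Cdkn1a, the p21 gene, was at 1520 to 1866 CPM in senescent MEFs and 373 to 527 CPM in control MEFs, and Mki67, a gene of dividing cells, at 0.65 to 2.55 CPM against 17.2 to 68.1 CPM.

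Fas stood out in senescence and Tnfrsf12a in the response to Fucoidan-FV. Against control MEFs, 1 of the 9 genes (Fas) was called in senescent MEFs, where 11.7% of all genes tested were called in either direction. At 100 μg/mL Fucoidan-FV, 2 of 9 (Tnfrsf12a and Tnfrsf22, both lower) were called against senescent MEFs beside 4.02% of all genes, and at 300 μg/mL 1 of 9 (Tnfrsf12a, lower) beside 1.9%. With so few members these shares describe the genes and are no evidence about the family. None of the 9 was called higher at either dose in the main edgeR fit. At an unadjusted p under 0.05, however, there were 3 higher and 3 lower at 100 μg/mL (19.8% of all genes in either direction). Beside 15.3%, there were 2 higher and 3 lower at the dose of 300 μg/mL. With DESeq2, run as an alternative, 2 were called higher at 100 μg/mL (Fas and Tnfrsf1a) and 1 at 300 μg/mL (Fas), and 2 lower at each dose (Tnfrsf12a and Tnfrsf22). DESeq2 called 9.55% and 6.25% of all genes in these comparisons. Both doses were compared with the same 3 senescent samples, so they are not independent of each other.

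**Figure D1:**
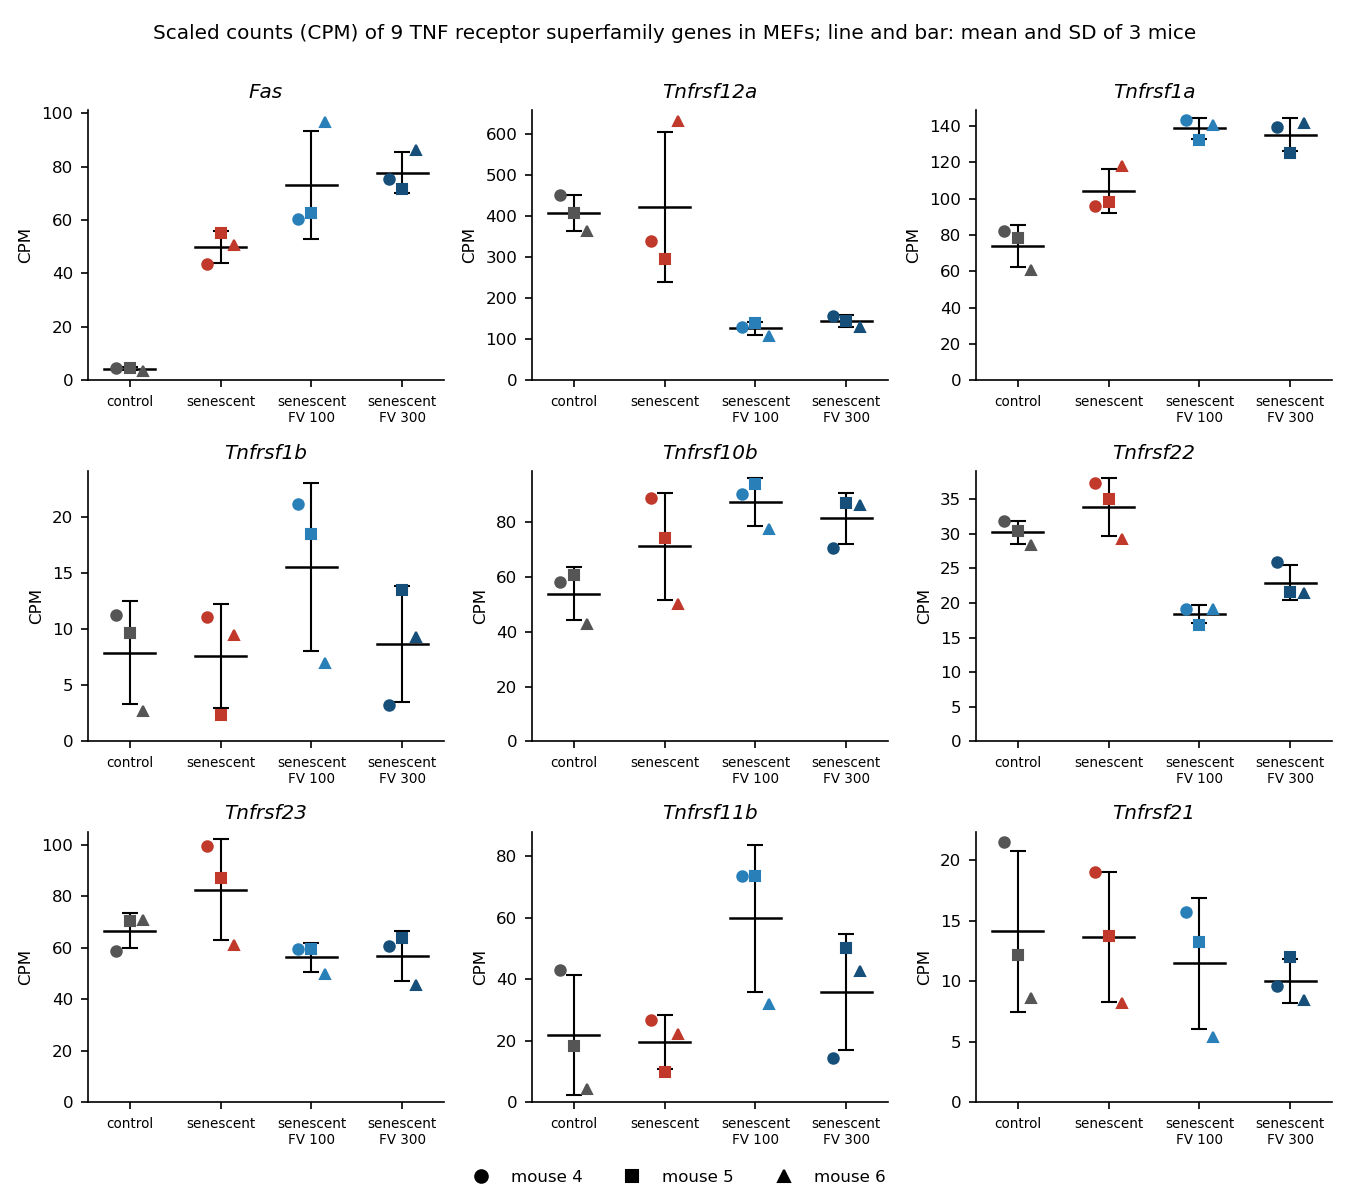
Level of each gene in CPM (vertical axis, starting at 0 and differing between panels) in the 4 groups (horizontal axis). Each point is 1 mouse, the line is the mean of 3 mice and the bar its SD; the 3 senescent samples of Fas lie between 43.5 and 55.3 CPM, all above the control samples, and the 6 samples given Fucoidan-FV lie below all untreated samples for Tnfrsf12a.

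Fas (ENSMUSG00000024778, chr19:34268001-34305173, plus strand) encodes the receptor of Fas ligand, which has a death domain and starts apoptosis through FADD and caspase 8. It was at 4.59, 4.69 and 3.62 CPM in mice 4, 5 and 6 of the control group and at 43.5, 55.3 and 50.7 CPM in senescent MEFs. At 100 μg/mL Fucoidan-FV the values were 60.5, 62.7 and 96.6 CPM, and at 300 μg/mL 75.5, 71.5 and 86.3 CPM. Control samples were thus the lowest by a wide margin, and each of the 6 treated samples exceeded each untreated senescent sample. Fas was 11.5-fold higher in senescent than in control MEFs (log2 fold change 3.53, SE 0.24, adjusted p = 7.59e-06) and had the second smallest p of all genes tested, rank 2 of 15034. Here as in every bulk culture, more cells with a transcript and more of the transcript per cell cannot be told apart.

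The further difference with Fucoidan-FV was 1.47-fold at 100 μg/mL (log2 fold change 0.56, SE 0.22, adjusted p = 0.173) and 1.56-fold at 300 μg/mL (0.64, SE 0.22, adjusted p = 0.159), higher in 3 of 3 mice at each dose and not called. With DESeq2 the adjusted p was 0.0396 and 0.0412. The groups did not overlap for Fas at either dose, which was also so for 26.2% of all genes tested at 100 μg/mL and 19.6% at 300 μg/mL. Against control MEFs, Fas in treated senescent MEFs was 17.0-fold higher at 100 μg/mL (adjusted p = 1.05e-06) and 18.0-fold higher at 300 μg/mL (adjusted p = 7.57e-07). Nothing in the values of Fas thus lay nearer to the control level after treatment.

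The bases just before the gene are shown because Fas had the largest difference of the 9 genes between senescent and control MEFs. In the GRCm39 assembly they lie at chr19:34267809-34268000 on the plus strand, and belong to the RefSeq promoter window of 250 bases, of which the last 58 fall inside the annotated gene and are not shown. Capitals mark the AP-1 site TGANTCA found by search.
Fas upstream: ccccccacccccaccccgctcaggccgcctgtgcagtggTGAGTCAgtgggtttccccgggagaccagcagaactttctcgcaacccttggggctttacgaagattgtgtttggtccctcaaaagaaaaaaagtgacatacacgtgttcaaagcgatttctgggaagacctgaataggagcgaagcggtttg

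Motifs were searched on both strands in the 250 bases before the RefSeq start (table of build GRCm38.p6), which were given for 6 of the 9 genes (Fas, Tnfrsf1a, Tnfrsf1b, Tnfrsf12a, Tnfrsf21 and Tnfrsf23). Besides the AP-1 site, present in 6.75% of 32851 promoters, the window of Fas held 1 GC box GGGCGG, a motif present in 32.7% of promoters. A half-site of p53 was in 7.13% of promoters and in none of the 6, which says nothing on p53 binding elsewhere. The window of Tnfrsf12a held 5 GC boxes and those of Tnfrsf1b, Tnfrsf21 and Tnfrsf23 held 2, 1 and 1. TATAAA, the TATA box, was in the window of Tnfrsf23 once and in 12.4% of all. The TEAD site GGAATG was in that of Tnfrsf1b at 2 places and in 12.6% of all. No match was found for the SRF CArG box or the NF-kB site in the 6 windows, nor for any motif in that of Tnfrsf1a.

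Tnfrsf1a (ENSMUSG00000030341, chr6:125325566-125339632, plus strand) encodes TNFR1, the death domain receptor through which most cells answer TNF. Its values were 82.4, 78.4 and 60.9 CPM in control MEFs and 96.2, 98.1 and 118 CPM in senescent MEFs. They were 144, 132 and 141 CPM at 100 μg/mL and 139, 125 and 142 CPM at 300 μg/mL. With the libraries of control mouse 5 summed, the 4 groups thus formed 3 steps without overlap. Control was below senescent, and senescent was below both doses. The 2 libraries of control mouse 5 lay apart, at 63.4 CPM in 5(1) and 92.8 CPM in 5(2). Tnfrsf1a and Fas were the 2 of 9 genes whose values did not overlap between senescent and control MEFs, where 27.1% of all genes did not overlap.

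The first step of Tnfrsf1a was 1.41-fold (log2 fold change 0.49, SE 0.17, adjusted p = 0.0748) and the second 1.33-fold at 100 μg/mL (0.42, SE 0.17, adjusted p = 0.184) and 1.3-fold at 300 μg/mL (0.38, SE 0.17, adjusted p = 0.297), each higher in 3 of 3 mice and none called. The difference between treated senescent and control MEFs was called, at 1.88-fold for 100 μg/mL (log2 fold change 0.91, SE 0.17, adjusted p = 0.00152) and 1.83-fold for 300 μg/mL (0.87, SE 0.17, adjusted p = 0.00216). The first step passed the threshold with DESeq2 (adjusted p = 0.0127), which called 17.9% of all genes there. In edgeR it did so with at least 10 counts in every sample (0.0466) and with control library 5(1) alone (0.0351). With library 5(2) alone its adjusted p was 0.204. The step at 100 μg/mL passed with DESeq2 (0.0185) and without senescent mouse 6 (0.0370).

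Tnfrsf10b (ENSMUSG00000022074, chr14:70004916-70021860, plus strand) encodes the death domain receptor of the ligand TRAIL in mice. It was at 58.2, 60.7 and 42.8 CPM in control MEFs and at 88.9, 74.4 and 50.02 CPM in senescent MEFs, groups that overlap through mouse 6. The lower dose gave 90.4, 94.0 and 77.4 CPM and the higher one 70.7, 86.9 and 86.4 CPM. Both doses lay above every control sample and overlapped with senescent MEFs. Against control MEFs the gene was called at 100 μg/mL (log2 fold change 0.69, SE 0.22, adjusted p = 0.0356), though not without treated mouse 5 (0.114), treated mouse 4 (0.101) or control mouse 6 (0.0671), and was not called at 300 μg/mL (0.59, SE 0.22, adjusted p = 0.0713). At 300 μg/mL the call was gained in 4 of 17 alternatives, with DESeq2 (0.0485), with only both groups fitted (0.0394), with an offset for sequence held by a single transcript (0.0275) and with that offset and the replicate block (0.0363). Its difference between senescent and control MEFs was 0.40 (SE 0.22, adjusted p = 0.298), positive in 3 of 3 mice. Of its 50-base words, 5.69% also occur in other genes, and its expected counts had a fractional part in 0 of 13 libraries.

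Tnfrsf21 (ENSMUSG00000023915, chr17:43327349-43400081, plus strand) encodes DR6, a death domain receptor known from neurons and lymphocytes. Its level ran from 8.65 to 21.5 CPM in the control group, 8.22 to 19.0 CPM in senescent MEFs, 5.40 to 15.8 CPM at 100 μg/mL and 8.42 to 11.99 CPM at 300 μg/mL. The groups overlapped throughout, and the gene was called in none of the 6 comparisons by edgeR, with adjusted p of 0.463 and above and no p under 0.05 before adjustment. The spread limits this: the 95% interval of its log2 fold change at 300 μg/mL against senescent MEFs reached from -1.41 to 0.51.

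Tnfrsf12a (ENSMUSG00000023905, chr17:23894416-23896468, minus strand) encodes Fn14, the small receptor of TWEAK, which has no death domain and signals through TRAFs. It was at 452, 407 and 363 CPM in mice 4, 5 and 6 of the control group and at 338, 296 and 631 CPM in senescent MEFs. At 100 μg/mL it was at 130.3, 139.9 and 108 CPM and at 300 μg/mL at 158, 144 and 129 CPM. The lowest untreated sample (senescent mouse 5) was thus far above the highest treated one. Senescent and control MEFs overlapped, and their difference was 0.05 on the log2 scale (SE 0.25, adjusted p = 0.937, 95% interval -0.48 to 0.58).

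Tnfrsf12a fell 3.34-fold at 100 μg/mL Fucoidan-FV (log2 fold change -1.74, SE 0.26, adjusted p = 0.00422) and 2.94-fold at 300 μg/mL (-1.56, SE 0.25, adjusted p = 0.00967) against untreated senescent MEFs, lower in 3 of 3 mice at each dose. It was also lower than in control MEFs, by 3.23-fold at 100 μg/mL (-1.69, SE 0.25, adjusted p = 0.00037) and 2.84-fold at 300 μg/mL (-1.51, SE 0.25, adjusted p = 0.000879). The doses did not differ detectably (log2 fold change 0.19 for 300 against 100 μg/mL, 95% interval -0.35 to 0.72). Without senescent mouse 6 the differences were -1.17 (adjusted p = 0.00983) and -1.10 (0.0151) on the log2 scale. In that sample Des, of the muscle list, was at 267 CPM, against 72.5 and 86.4 CPM in the other senescent samples, while the other 5 muscle markers together held 0.306 CPM. A fit of only the senescent and the treated samples gave an adjusted p of 0.0561 at 100 μg/mL and 0.0565 at 300 μg/mL, and leaving out mouse 6 of the 300 μg/mL group gave 0.0656 at that dose.

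All 1956 exonic bases of Tnfrsf12a also lie in exons of Hcfc1r1, a regulator of host cell factor, on the opposite strand. The kit marks strand, but whether reads were counted by strand is not given in the sources used here. Whether reads were divided between both genes was not tested. Hcfc1r1 stood at 21.2 to 33.3 CPM in the control group, 47.2 to 92.4 CPM in senescent MEFs, 84.3 to 126 CPM at 100 μg/mL and 94.5 to 119 CPM at 300 μg/mL. All 6 treated samples thus exceeded the control samples, with log2 fold changes of 1.32 in senescent against control MEFs (SE 0.28, adjusted p = 0.00780), 0.61 at 100 μg/mL (SE 0.28, adjusted p = 0.240) and 0.78 at 300 μg/mL (SE 0.28, adjusted p = 0.180). In senescent mouse 6 both genes were at the highest level of their group. The mean of Tnfrsf12a went from 422 ± 183 CPM in senescent MEFs to 126 ± 16.3 CPM at 100 μg/mL (SD, n = 3). The expected counts of Tnfrsf12a were whole numbers in all 13 libraries, and those of Hcfc1r1 had a fractional part in 4, which is what RSEM writes when it divides a read.

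**Figure D2:**
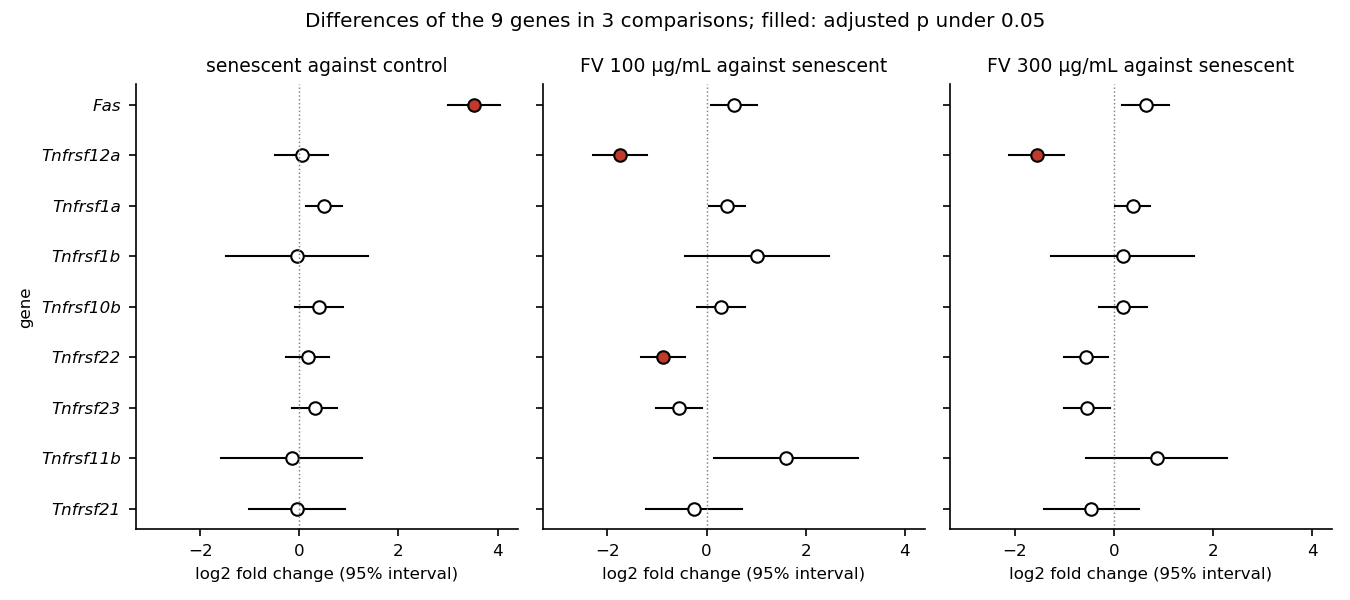
Log2 fold change (horizontal axis) of each gene (vertical axis) in senescent against control MEFs and at each Fucoidan-FV dose against senescent MEFs. Points are estimates of edgeR, lines their 95% intervals and filled points have an adjusted p under 0.05; Fas is filled in the first panel, Tnfrsf12a and Tnfrsf22 in the second and Tnfrsf12a in the third.

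Tnfrsf22 and Tnfrsf23 encode decoy receptors of TRAIL that lack a death domain and are found in rodents. They are neighbours on the minus strand, Tnfrsf22 (ENSMUSG00000010751) at chr7:143187219-143203408 and Tnfrsf23 (ENSMUSG00000037613) at chr7:143219546-143239611. Their coding sequences are near copies, with 90.7% of 528 aligned bases identical and one run of 102 identical bases. Windows of 60 coding bases are shown as examples of where the genes differ and where they do not. The pair of windows with the most differences, 10, lies at chr7:143198546-143198605 (Tnfrsf22) and chr7:143235225-143235284 (Tnfrsf23) in GRCm39, written along the coding strand with capitals at the bases that differ.
Tnfrsf22 window: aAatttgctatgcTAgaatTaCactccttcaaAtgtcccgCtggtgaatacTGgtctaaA
Tnfrsf23 window: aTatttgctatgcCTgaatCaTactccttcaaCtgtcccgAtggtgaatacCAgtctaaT
Elsewhere the copies do not differ at all, as in the next stretch, which is the same at chr7:143193653-143193712 and chr7:143223733-143223792.
Tnfrsf22 and Tnfrsf23 shared: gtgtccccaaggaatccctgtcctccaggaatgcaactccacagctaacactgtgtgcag
The part of a read within such a stretch fits both genes, while a longer read also covers bases outside it. Of the 4591 50-base words of Tnfrsf23, 720 (15.7%) occur in other genes, and 720 in Tnfrsf22. The expected counts of the pair had a fractional part in 12 of 13 libraries, and those of the other 7 members in 0.

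Tnfrsf22 was at 31.8, 30.3 and 28.4 CPM in control MEFs and at 37.3, 35.0 and 29.3 CPM in senescent MEFs. The lower dose gave 19.2, 16.8 and 19.2 CPM and the higher one 25.9, 21.6 and 21.4 CPM. Both doses were below all 6 untreated samples. Tnfrsf22 fell 1.84-fold at 100 μg/mL against senescent MEFs (log2 fold change -0.88, SE 0.20, adjusted p = 0.0323), in 3 of 3 mice, and was 1.48-fold lower at 300 μg/mL (-0.56, SE 0.20, adjusted p = 0.188), which was not called.

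This call of Tnfrsf22 was near the threshold. It was lost in 5 of the 6 fits that left out 1 mouse (adjusted p of 0.0697 to 0.161, against 0.0331 without senescent mouse 6), with RLE factors (0.0506), without the filter on low counts (0.151) and with only both groups fitted (0.150), while DESeq2 gave 0.000195. Against control MEFs, Tnfrsf22 was lower at 100 μg/mL (log2 fold change -0.72, SE 0.20, adjusted p = 0.0193), a call lost in 5 of the 6 fits that left out 1 mouse (0.0566 to 0.106), and was at -0.40 (SE 0.20, adjusted p = 0.177) at 300 μg/mL. The difference between the doses was 0.32 (SE 0.20, adjusted p = 0.970).

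Tnfrsf23 was at 58.7, 70.5 and 70.7 CPM in control MEFs and at 99.4, 87.0 and 61.2 CPM in senescent MEFs. It was at 59.4, 59.6 and 49.8 CPM at 100 μg/mL and at 60.7, 63.8 and 45.6 CPM at 300 μg/mL. Treated samples were lower than the senescent sample of the same mouse in 3 of 3 mice at each dose. The log2 fold change was -0.55 (SE 0.21, adjusted p = 0.166) at 100 μg/mL and -0.54 (SE 0.21, adjusted p = 0.233) at 300 μg/mL, neither called. A stretch of 164 bases of its exons (4.14%) lies opposite to E230032D23Rik. Of the 5527 50-base words of Tnfrsf22, 1139 (20.6%) occur in other genes, and 720 of these in Tnfrsf23. The sum of both decoy genes, which a division of reads between them cannot move but one with a further gene can, was 116 ± 23.6 CPM in senescent MEFs, 74.7 ± 5.03 CPM at 100 μg/mL and 79.6 ± 10.97 CPM at 300 μg/mL, beside 96.8 ± 5.55 CPM in control MEFs (SD, n = 3). Every treated sum (67.0 to 86.5 CPM) was below every untreated sum (90.5 to 137 CPM). The sum was not tested, and an exact permutation test of 3 samples against 3 cannot give a p under 0.1.

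Tnfrsf11b (ENSMUSG00000063727, chr15:54114015-54142075, minus strand) encodes osteoprotegerin, a secreted decoy that captures RANKL, and Tnfrsf1b (ENSMUSG00000028599, chr4:144938938-144973477, minus strand) encodes TNFR2, a TNF receptor without a death domain. Tnfrsf11b was at 42.9, 18.2 and 4.42 CPM in mice 4, 5 and 6 of the control group, at 26.7, 9.91 and 22.3 CPM in senescent MEFs, at 73.7, 73.6 and 32.1 CPM at 100 μg/mL and at 14.4, 50.1 and 42.8 CPM at 300 μg/mL. Tnfrsf1b was at 11.3, 9.70 and 2.68 CPM, at 11.1, 2.37 and 9.45 CPM, at 21.1, 18.5 and 6.99 CPM and at 3.26, 13.5 and 9.29 CPM in the same order. Samples of 1 group thus lay far apart, and for both genes the lowest sample of a group was the same one: control mouse 6, senescent mouse 5, mouse 6 at 100 μg/mL and mouse 4 at 300 μg/mL.

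The difference of Tnfrsf11b at 100 μg/mL against senescent MEFs was the largest increase of the 9 genes, 3.04-fold (log2 fold change 1.61, SE 0.67), with groups that did not overlap, but its adjusted p was 0.202. At 300 μg/mL it was 0.86 (SE 0.66, adjusted p = 0.605), and between senescent and control MEFs -0.15 (SE 0.66, adjusted p = 0.927). Tnfrsf1b gave 1.02 (SE 0.67, adjusted p = 0.438) at 100 μg/mL, 0.18 (SE 0.67, adjusted p = 0.939) at 300 μg/mL and -0.05 (SE 0.67, adjusted p = 0.978) between senescent and control MEFs. Neither gene was called in any comparison in the main edgeR fit. Without the filter on low counts Tnfrsf11b at 100 μg/mL reached an adjusted p of 0.000502 against senescent MEFs and 0.000544 against control MEFs, and without control mouse 4 its difference from control MEFs was 2.59 (adjusted p = 0.0325).

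Except for mouse 6 at 100 μg/mL, the low samples of both genes were low for a whole kind of gene. Genes were sorted by the share of their exonic sequence that lies in a single annotated transcript, which is 100% for Tnfrsf11b, 92.4% for Tnfrsf1b and 26.6% to 73.8% for the other 7. In control mouse 5, library 5(2) exceeded library 5(1) by a median of 1.86 on the log2 scale over the 2229 genes where this share was above 95%. Where the share was below 50% (7614 genes), the median was -0.19. The 2 libraries held 736 and 190 counts of Tnfrsf11b and 421 and 73 counts of Tnfrsf1b. The 4 libraries with the lowest median over the single-transcript genes (control mouse 6, control 5(1), mouse 4 at 300 μg/mL and senescent mouse 5) were the 4 lowest for Tnfrsf11b and for Tnfrsf1b, while 0 to 2 of them were among the 4 lowest for each other member. Mouse 6 at 100 μg/mL had a median deviation of -0.15 from the mean over libraries. The highest medians were those of mouse 5 (0.94) and mouse 4 (0.85) at that dose, where Tnfrsf11b and Tnfrsf1b were also highest.

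With an offset per gene and library for this share, the log2 fold change at 100 μg/mL against senescent MEFs was 1.01 for Tnfrsf11b (adjusted p = 0.0885) and 0.55 for Tnfrsf1b (0.446). Against control MEFs at 100 μg/mL Tnfrsf11b then passed the threshold with 0.91 (adjusted p = 0.0432), where the fit without the offset gave 1.45 (0.126). For Tnfrsf12a and Tnfrsf22, with shares of 44.5% and 26.6%, each of the 6 treated libraries was below each of the 7 untreated ones.

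**Figure D3:**
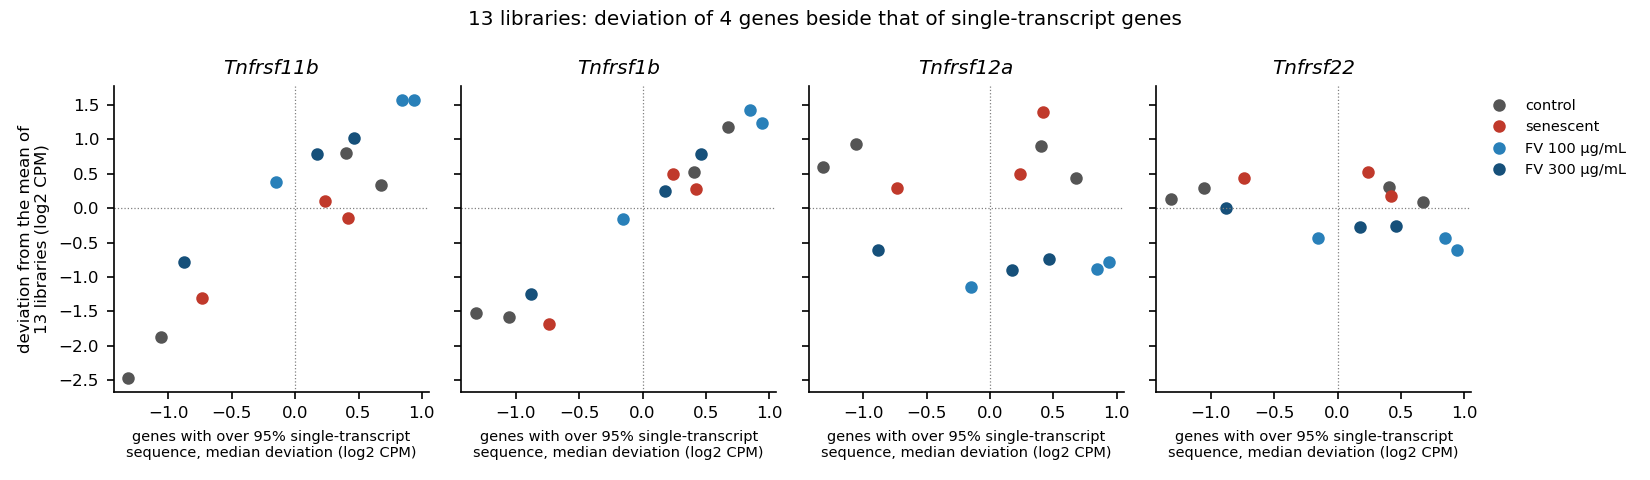
Each of the 13 libraries is a point: the median deviation of genes with over 95% single-transcript sequence from their mean over libraries (horizontal axis, log2 CPM) beside the deviation of the named gene (vertical axis, log2 CPM). Tnfrsf11b and Tnfrsf1b are lowest in the 4 libraries at the left (medians from -1.32 to -0.74), whichever their group, whereas the 6 treated libraries are the lowest for Tnfrsf12a.

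Levels of different genes were compared in TPM (a unit that accounts for transcript length), within samples. In control MEFs Tnfrsf12a was the highest of the 9 at 908 ± 113 TPM, followed by Tnfrsf1a (106 ± 12.6 TPM), Tnfrsf23 (47.3 ± 5.52 TPM) and Tnfrsf10b (27.6 ± 4.23 TPM), with no overlap between these neighbours or between Tnfrsf10b and the next. Tnfrsf22, Tnfrsf11b, Tnfrsf21, Fas and Tnfrsf1b followed with 15.8, 11, 7.68, 4.60 and 4.24 TPM, and each overlapped with the next. In senescent MEFs Fas (51.9 ± 6.87 TPM) stood at rank 4 and overlapped with Tnfrsf23 above it and Tnfrsf10b below it. At both doses it was at rank 3, with 104 ± 15.3 TPM and 101 ± 10.2 TPM, below Tnfrsf1a and above Tnfrsf10b without overlap.

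Of the summed TPM of the 9 genes, Tnfrsf12a took 80.2 ± 1.38% in control MEFs, 71.5 ± 8.73% in senescent MEFs, 41.6 ± 4.39% at 100 μg/mL and 44.1 ± 2.93% at 300 μg/mL. For Tnfrsf1a the share was 9.37 ± 0.914%, 12.99 ± 3.24%, 27.4 ± 5.70% and 28.8 ± 2.92% in the same order, and that of Fas 0.405 ± 0.0704%, 4.13 ± 1.18%, 11.2 ± 2.50% and 10.8 ± 1.34%. One receptor without a death domain thus made up most of these transcripts in all 6 untreated samples and less than 50% of them in all 6 treated ones. Because these are shares of a sum, a fall of Tnfrsf12a by itself raises the shares of the other genes. Between groups the TPM values carry a shift of all genes, with a median log2 ratio of 0.34 at 100 μg/mL and 0.29 at 300 μg/mL against senescent MEFs. Relative to a median that high, the TPM ratios of Tnfrsf12a (-1.26 and -1.17 on the log2 scale) and Tnfrsf22 (-0.42 and -0.47) were lower and those of Fas (1.00 and 0.96) higher, as in CPM. Unlike in CPM, the TPM values of Tnfrsf22 at each dose overlapped with those in senescent MEFs. Against control MEFs its log2 TPM ratios were -0.02 at 100 μg/mL and -0.07 at 300 μg/mL, beside medians over all genes of 0.47 and 0.39.

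**Figure D4:**
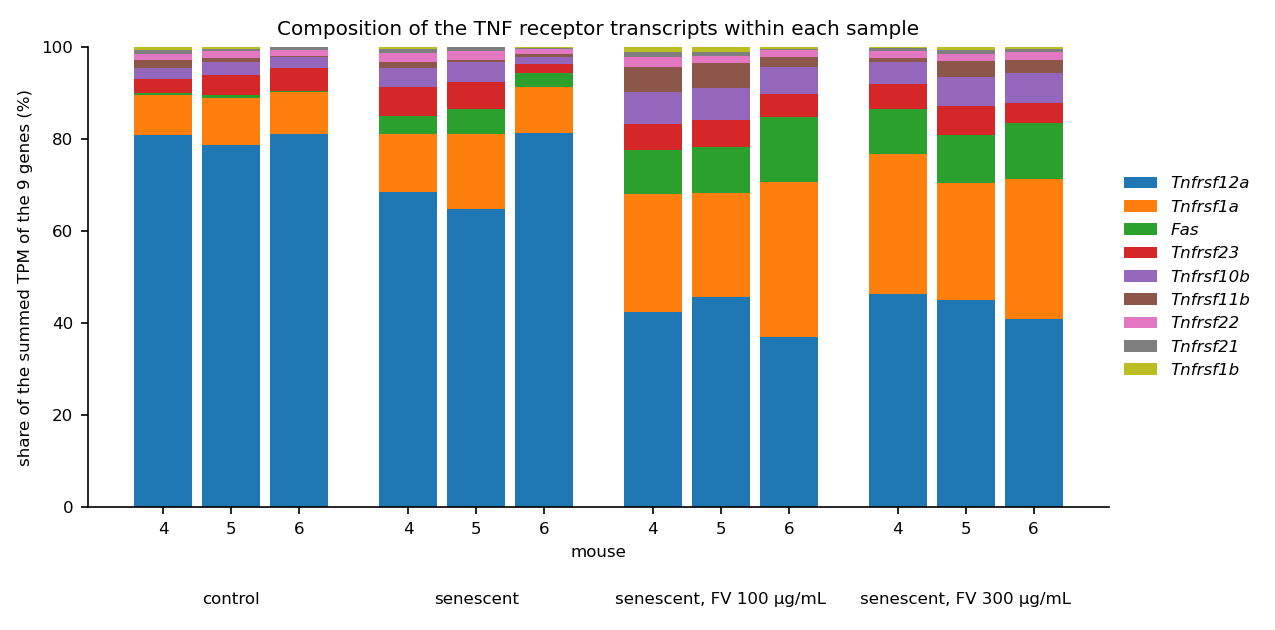
Share of the summed TPM of the 9 genes (vertical axis, percent) taken by each gene in every sample (mice 4, 5 and 6 of each group along the horizontal axis). Tnfrsf12a takes 64.7% to 81.3% in the 6 untreated samples and 36.9% to 46.4% in the 6 samples given Fucoidan-FV.

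Treated senescent MEFs were compared with control MEFs to see where they stood relative to cultures without etoposide. At 100 μg/mL 5 of the 9 genes were called (Fas, Tnfrsf1a and Tnfrsf10b higher, Tnfrsf12a and Tnfrsf22 lower), beside 26.6% of all genes, and at 300 μg/mL 3 (Fas and Tnfrsf1a higher, Tnfrsf12a lower), beside 24.4%. The doses were compared with each other for a dependence on dose. None of the 9 was called by edgeR, where 0.00665% of all genes were, none had an unadjusted p under 0.05 and DESeq2 called none. The intervals still leave room: the 95% interval of the dose difference of Fas ran from -0.38 to 0.55 and that of Tnfrsf11b from -2.16 to 0.68 on the log2 scale.

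For each member the genes of most similar pattern were those with the highest Pearson correlation of log2 CPM over the 12 samples, given as a description since samples of a group share their treatment. Fas was nearest to Ctsf, which encodes the lysosomal protease cathepsin F (r = 0.99), then to Svop and Trim7. Tnfrsf12a was nearest to Ehbp1l1 (r = 0.98), Rbpms2 and Dok1, and Tnfrsf22 to Myo1c, an unconventional myosin (r = 0.97), Rin1 and Cd44, the hyaluronan receptor. Tnfrsf1a was nearest to Cst3, which encodes cystatin C (r = 0.98), Ggt5 and Rdh10. For Tnfrsf10b these were Gm37893 (r = 0.97), Rictor and St3gal2, for Tnfrsf23 Dock5 (r = 0.90), Zfp697 and Golim4, and for Tnfrsf21 Dlat (r = 0.92), Epha2 and Smpd3. Tnfrsf11b was nearest to Scap (r = 0.99), Cavin2 and Scara3, and Tnfrsf1b to Zswim3 (r = 0.98), Inafm2 and Osbp. All exonic sequence of Cavin2, Scara3, Zswim3, Inafm2 and Osbp lies in a single transcript, as does that of Tnfrsf11b. The same holds for Gm37893, the gene nearest to Tnfrsf10b, and for 85.1% of the exonic sequence of Rictor.

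Transcripts of TNF, lymphotoxin alpha, Fas ligand and TRAIL were scarce. Fasl, the Fas ligand, had 0 counts in all 13 libraries, and Tnf and Tnfsf10, which encodes TRAIL, had at most 1 count in a library. Lta, which encodes lymphotoxin alpha, had at most 7. These 4 genes were not tested, so the receptors of TNF, Fas ligand and TRAIL were measured in cultures whose own transcripts of these ligands were at or near 0. Tnfsf11, the gene of RANKL, was at 0.818 ± 0.757 CPM in control and 0.499 ± 0.253 CPM in senescent MEFs. Tnfsf12, the gene of TWEAK and thus the ligand of Fn14, was at 6.23 ± 0.358 CPM in control and 9.18 ± 5.33 CPM in senescent MEFs, 14.3 ± 3.84 CPM at 100 μg/mL and 10.2 ± 5.63 CPM at 300 μg/mL. It was not called (adjusted p of 0.569, 0.545 and 0.934 in the 3 comparisons in turn), and 85.8% of its exonic sequence lies in a single transcript.

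Further genes of the pathway were taken as 6 lists (84 genes, 64 of them tested). In senescent against control MEFs 3 of the 64 were called higher and 1 lower, beside 11.7% of all genes, and 5 were higher and 2 lower at an unadjusted p under 0.05, beside 25.4%. At each dose against senescent MEFs none was called higher and 3 of 64 were called lower by edgeR, beside 4.02% of all genes at 100 μg/mL and 1.9% at 300 μg/mL, while 3 (100 μg/mL) and 1 (300 μg/mL) were higher and 5 lower at an unadjusted p under 0.05. DESeq2 called none higher and 4 lower at each dose. The median log2 fold change of the 64 was 0.01 in senescence, 0.06 at 100 μg/mL and 0.06 at 300 μg/mL, beside 0.07, -0.02 and 0.00 over all genes tested.

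Among 11 tested receptors of the family outside the 9, Eda2r and Tnfrsf19 were called higher in senescent MEFs and none was called at either dose. The shares over all genes were 11.7% in senescence, 4.02% at 100 μg/mL and 1.9% at 300 μg/mL. Eda2r, the ectodysplasin A2 receptor and like Fas a known p53 target, rose to 33.4 ± 15.3 CPM, where control MEFs had 13.6 ± 2.31 CPM (log2 fold change 1.29, SE 0.34, adjusted p = 0.0257). Tnfrsf19, also called TROY, was at 0.0697 ± 0.0890 CPM in control and 1.42 ± 0.795 CPM in senescent MEFs (adjusted p = 0.0369). Of 7 tested ligands, 1 was called, at both doses, beside the same shares: Tnfsf15, which encodes TL1A. It was at 6.68 ± 3.79 CPM in control MEFs, 16.0 ± 6.54 CPM in senescent MEFs, 1.44 ± 0.535 CPM at 100 μg/mL (log2 fold change -3.47 against senescent MEFs, SE 0.50, adjusted p = 0.00410) and 2.12 ± 0.12 CPM at 300 μg/mL (-2.91, SE 0.49, adjusted p = 0.0103).

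Downstream of the receptors, none of 18 adaptors and ubiquitin ligases and none of 13 kinases to NF-kB and JNK was called in the 3 comparisons. Of all genes, 11.7% were called in senescence, 4.02% at 100 μg/mL and 1.9% at 300 μg/mL. In lists this short such counts describe the genes and are no evidence about the pathway. Of 9 tested death effectors, Ripk3, the kinase of necroptosis, was called at both doses, with 172 ± 14.8 CPM in control MEFs, 148 ± 45.0 CPM in senescent MEFs, 62.3 ± 8.95 CPM at 100 μg/mL (log2 fold change -1.25, SE 0.22, adjusted p = 0.00890) and 70.6 ± 10.3 CPM at 300 μg/mL (-1.07, SE 0.22, adjusted p = 0.0263). Of 6 genes for shedding of receptors and ligands, Timp3, an inhibitor of the sheddase ADAM17, rose in senescence to 1139 ± 278 CPM, against 346 ± 50.7 CPM in control MEFs (1.72, SE 0.20, adjusted p = 0.000177). It fell to 522 ± 66.1 CPM at 100 μg/mL (-1.13, SE 0.20, adjusted p = 0.00861) and to 481 ± 25.9 CPM at 300 μg/mL (-1.24, SE 0.20, adjusted p = 0.00874), and 93.2% of its exonic sequence lies in a single transcript. Erap1, an aminopeptidase known to aid the shedding of TNFR1, fell in senescence from 20.2 ± 3.17 CPM to 9.67 ± 0.873 CPM (-1.06, SE 0.28, adjusted p = 0.0275).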

How the data were processed

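RNA of WT MEFs was measured in 13 libraries of 4 groups (3 mice each). The authors made stranded total RNA libraries and, per the labels and the methods, ran FastQC 0.12.1, Trimmomatic, STAR 2.7.11b on GRCm39 and RSEM 1.3.1. The values used are the expected counts per gene that the authors deposited, estimated by RSEM without normalization, and the TPM values deposited by the authors in the same files, used only to compare levels between genes. A table of the whole series was not used here.

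Expected counts were rounded and libraries 5(1) and 5(2) of control mouse 5 summed (their TPM values were averaged). The filter was filterByExpr with a count of 10 and a total of 15, and CPM uses TMM factors. Tests used edgeR 4.0.16 under R 4.3.3 (quasi-likelihood, 1 fit over 4 groups, Benjamini-Hochberg over 15034 genes in each of 6 comparisons), checked on simulated counts. A call is an adjusted p under 0.05. SE was derived from the log2 fold change and the F statistic of each test, and 95% intervals from that SE. Intervals cover the spread between these samples alone. Of 57010 genes listed, 56310 matched the annotation.

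The members and lists were chosen with earlier results of these data known. All 9 members are named. Of the pathway lists, the genes called with an absolute log2 fold change over 1 in the 3 main comparisons are named (at most 4 per list and comparison), together with the 6 known ligands, and for each member the 3 most correlated genes.

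Pairing comes from the labels, which number the mice. Deviations of same-numbered samples from their group means correlated with a median of -0.01 over 18 pairs (-0.20 to 0.43, 8 over 0.1). Alternatives were RLE factors, DESeq2 1.42.0, other filters, only both groups in the fit, either library of control mouse 5 alone or both as separate samples, the replicate number as a block, leaving out 1 mouse at a time, a fold threshold and an offset for single-transcript sequence. The offset together with the block was added after seeing the data. Exonic overlaps, shared words and sequences were read from GRCm39 with the GENCODE annotation, and the promoter window of RefSeq was placed there by exact match.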

Additional observations from a re-analysis of the deposited data

How the results depend on the processing

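Over 54 differences (9 genes in 6 comparisons) and 918 values under alternatives, 879 kept their side of the threshold, 20 lost a call, 19 gained one and 0 called differences changed sign; 44 values of uncalled differences did. Fas in senescent against control MEFs, and Fas, Tnfrsf1a and Tnfrsf12a in treated against control MEFs, were called in all 17 alternatives each.

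The count of the 9 genes called higher in senescent against control MEFs was 1 and became 2 with DESeq2, with at least 10 counts in every sample and with library 5(1) alone. At 100 μg/mL against senescent MEFs, the count called higher was 0 and became 2 with DESeq2 and 1 without the filter (0 to 1 leaving out 1 mouse), and the count called lower was 2 and became 1 with RLE factors, without the filter and with a log2 fold change over 1, and 0 with only both groups fitted (1 to 2 leaving out 1 mouse). At 300 μg/mL, higher went from 0 to 1 with DESeq2, and lower from 1 to 2 with DESeq2 and 0 with only both groups fitted (0 to 1 leaving out 1 mouse). Against control MEFs at 100 μg/mL, higher went from 3 to 1 with the fold threshold and to 4 without the filter and with the offset, alone or with the replicate block (2 to 4 leaving out 1 mouse), and lower from 2 to 1 with that threshold and without the filter (1 to 2 leaving out 1 mouse). At 300 μg/mL, higher went from 2 to 1 with the threshold and to 3 with DESeq2, with only both groups fitted and with the offset, and lower from 1 to 2 with the offset, both also with the replicate block added to the offset. Pathway genes called in senescence went from 3 higher and 1 lower to 5 and 2 with DESeq2, which called 17.9% of all genes there, against 11.7% in the main fit.

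With the mouse as a replicate block no member's call changed (adjusted p = 0.0134 and 0.0249 for Tnfrsf12a at 100 and 300 μg/mL, 0.0453 for Tnfrsf22). Over all genes, calls at 100 μg/mL against senescent MEFs were 605, but 1410 with DESeq2 and 170 with only both groups fitted, and the share of them that was higher was 28.3%, but 42.9% with RLE factors, which shift the median gene by 0.09. At 300 μg/mL they were 286, 985 and 101, and in senescence 1765, 2814 and 765. The cause of these changes was not tested.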
